A study of Mus musculus with 2 samples.

Results

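Cartilage-type cells were sought among the cells of mouse eye cups at E17.5, late in embryonic life, and 704 of 36146 cells met the rule. A cell counted as a member when at least 3 of the 6 genes Acan, Matn4, Cnmd, Hapln1, Mia and Bmper had a unique molecular identifier (UMI, a tag that marks 1 captured RNA molecule) and the 6 genes together made up at least 0.1% of its UMIs. The members were thus chosen by these 6 genes, and the levels of the 6 are a description of the choice. Of the members, 687 came from the Myrf humWT/humWT library and 17 from the Myrf humdG/humdG library.

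Both groups were homozygous for a humanized Myrf allele, made with CRISPR/Cas9 from C57BL/6J eggs, in which the last mouse exon of Myrf was replaced by its human counterpart, untranslated sequence included. The humWT allele holds the normal human exon and served as the control. The humdG allele also holds a C-terminal frameshift variant found in a family with nanophthalmos, an inherited small eye. Neither group was an unmodified wild type, and neither carried a Cre transgene. Per the labels, 3 eye cups were pooled for each genotype, whereas the methods of the study name both eyes of as many mice. Each pool gave 1 droplet library, so the genotypes could not be tested against each other, and each interval below is a 95% interval for counting error only. The sources differ on whether the cornea was removed, and the deposited protocol text names mice of another Myrf strain, so the dissection of these 2 libraries is not certain. The humWT library held 17421 barcodes and 129135207 UMIs, and the humdG library held 19565 barcodes and 114319529 UMIs. The deposited barcodes outnumber the cells that the study states for each genotype, and the step between them could not be repeated, so all shares below are of barcodes kept here. After cells with 500 genes or fewer, or with 15% or more mitochondrial UMIs, were left out, 17017 humWT and 19129 humdG cells were kept.

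Cartilage is made by chondrocytes, which secrete a matrix of type II collagen fibrils, stiffened by type IX and XI collagen and filled with aggrecan, a proteoglycan whose sulfated sugar chains hold water. The transcription factor SOX9, with SOX5 and SOX6 as partners, switches these genes on. The wall of the mouse eyeball is fibrous, while cartilages of the skull base and the orbit lie close to it in the embryo. Among the genes of the rule, Acan encodes aggrecan, Hapln1 the link protein that ties it to hyaluronan, Matn4 the adaptor matrilin-4, Cnmd the growth-inhibiting chondromodulin, Mia a small secreted cartilage protein, and Bmper a secreted regulator of BMP signals.

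Levels are given as CPM, the UMIs of a gene per 1000000 UMIs, summed over the cells named. In the humWT members, the rule gene Matn4 was at 553 CPM, Acan at 309, Cnmd at 273, Hapln1 at 235, Mia at 221 and Bmper at 179. In the humdG members, Bmper was the highest of the 6 at 820 CPM, followed by Matn4 at 740, Acan at 389, Cnmd at 201, Hapln1 at 194 and Mia at 112. Without the 6 humdG members of over 100000 UMIs, which are described below, Bmper stood at 578 CPM, Matn4 at 481, Acan at 199.8, Hapln1 at 151, Mia at 86.4 and Cnmd at 81.0. The 6 genes together took a median of 0.164% of the UMIs of a humWT member (0.1% to 0.583%) and 0.181% of a humdG member (0.105% to 0.282%). For most humWT members this was a handful of molecules: 359 of the 687 had 3 of the 6 genes, 212 had 4, 96 had 5 and 20 had all 6. Of the 17 humdG members, 9 had all 6 genes. Just inside the limit, at 0.10% to 0.12%, stood 119 humWT cells with Col2a1 (type II collagen) at 663 CPM. Just outside it, at 0.08% to 0.10%, stood 105 cells with Col2a1 at 588 CPM. In all, 548 humWT and 43 humdG cells had at least 3 of the genes but a summed share under 0.1%. Among humdG cells, 3 stood just inside, with Col2a1 at 1220 CPM, and 7 just outside, with Col2a1 at 758 CPM.

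The members of the 2 libraries were unlike in depth. The humWT members had a median of 2960 UMIs (933 to 26710) and 1221 genes, while the humdG members had a median of 27360 UMIs (3317 to 224828) and 5344 genes. Of the 17 humdG members, 6 held over 100000 UMIs each (140592 to 224828) and together 85.5% of all humdG member UMIs. The other 11 had a median of 19087 UMIs. No humWT member passed 100000 UMIs. All 6 of these barcodes carried both Xist, which is made in female cells, and RNA of Y-linked genes, as did 24 of all 26 humdG and 16 of 25 humWT barcodes of that size. Their counts were also alike: a chi-square per gene, which is near 1 for repeat draws from the same RNA, ran from 1.06 to 2.44 over their 15 pairs, with a median of 1.82. Among the 20 other humdG barcodes of that size its median was 5.02 over 190 pairs, and among 25 humWT barcodes it was 34.1 over 300 pairs, but the lowest pairs there, at 1.07 and 1.06, were as alike. The source of these barcodes was not tested. Where leaving them out moved a humdG level or a ratio over all members by over 1.5 times, the value without them is given for most genes below. Of the 102 barcodes deposited in both libraries, 4 belonged to humWT members and none to humdG members.

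**Figure D1:**
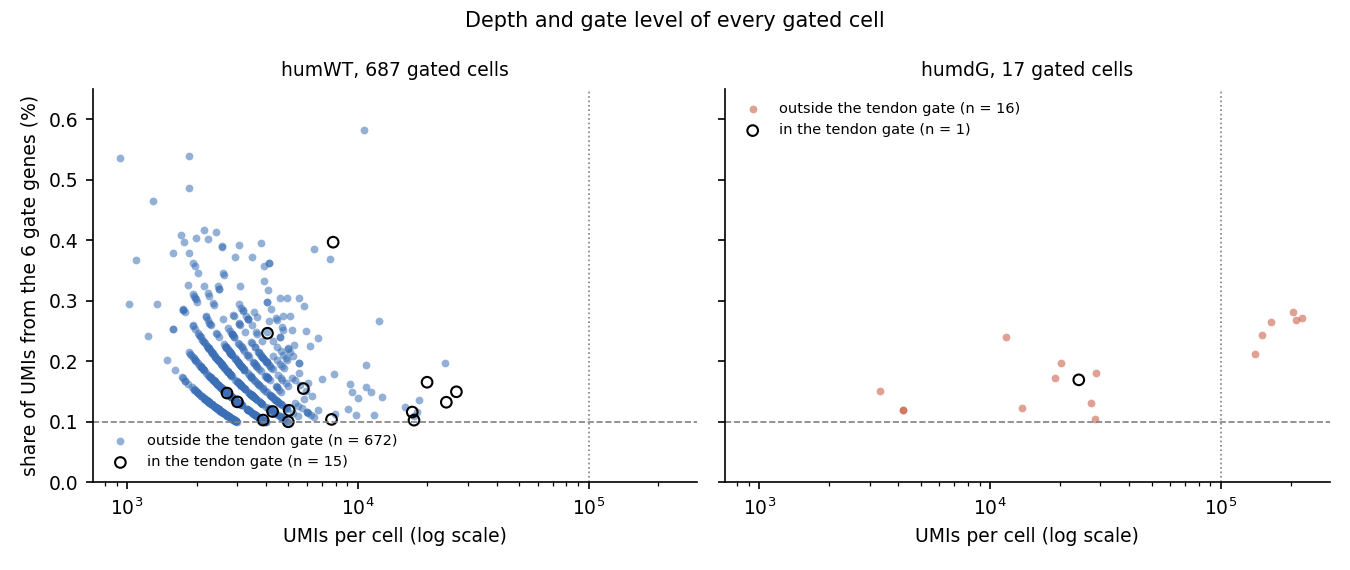
Depth and rule level of every member. The x axis gives UMIs per cell on a log scale, the y axis the share of those UMIs from the 6 rule genes in percent, open circles mark members that also met a tendon rule, and the dashed and dotted lines stand at 0.1% and 100000 UMIs. Most of the 687 humWT members lie between 2000 and 5000 UMIs, while 6 of the 17 humdG members lie beyond the dotted line.

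The label of cartilage was checked on genes that the rule did not use. The cartilage collagen gene Col2a1 was at 1040 CPM (1000 to 1081) in the humWT members and at 128 CPM in all other kept humWT cells. In the humdG members it was at 1677 CPM (1607 to 1749), against 44.2 CPM in the other humdG cells, and at 1155 CPM without the 6 largest barcodes. Sox9 was at 682 CPM (650 to 715) against 113 CPM in humWT, and at 1395 CPM (1331 to 1461) against 84.7 CPM in humdG. To set depths aside, each cell was thinned to 1000 UMIs. A Col2a1 molecule then remained in 58.3% of humWT members (54.5% to 62.0%), compared with 15.4% of the other humWT cells, 27.0% of tendon-gated cells, 5.80% of fibroblast-gated cells and 8.09% of red blood cells. Before thinning, the shares were 89.1% of members and 35.0% of red blood cells, which do not make collagen. In the humdG library, 5.00% of red blood cells had a Col2a1 molecule before thinning and 0.385% after it, so that stray cartilage RNA was more widespread in the humWT library. In the humdG library, 10 of 17 thinned members (58.8%, 32.9% to 81.6%) and 3.85% of the other cells kept a Col2a1 molecule. For Sox9, the thinned shares were 47.4% of members and 14.5% of other cells in humWT, and 58.8% and 8.52% in humdG. The collagen gene Col9a1 remained in 30.9% of humWT members and 10.2% of other humWT cells. In humdG it remained in 2 of 17 members (11.8%, 1.46% to 36.4%), not set apart from the 9.86% of other cells.

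Across 11437 genes with at least 20 UMIs in the members, 0.656% stood at least 2-fold above the other kept cells in both libraries, with 10 CPM added to each side. Since the cells had been selected on their RNA, these folds are a description. Of these 75 genes, 69 also met the 2-fold limit without the 6 largest humdG barcodes. Outside the 6 rule genes, the 10 genes with the highest such fold were Col2a1, Wwp2, Sox9, Alx1, Edil3, Col9a2, S100b, Susd5, Bmp5 and Scin. Wwp2, a ubiquitin ligase gene of cartilage, was at 355 CPM in humWT members (other cells, 54.2) and at 1866 CPM in humdG members (other cells, 33.1), or 724 CPM without the 6 largest barcodes. Alx1, a homeobox gene of the facial mesenchyme, was at 164 CPM in humWT and 275 CPM in humdG, against 25.9 and 5.91 CPM in other cells. Edil3, a secreted integrin-binding protein, was at 212 and 783 CPM (486 without those 6), and the calcium-binding S100b at 140 and 193 CPM. Bmp5, a BMP ligand, was at 58.3 CPM in humWT and 203 CPM in humdG (75.6 without those 6), against 5.93 and 1.30 CPM in other cells. Scin, an actin-severing protein, was at 64.8 and 105 CPM, and Susd5 at 62.3 and 167 CPM (103 without those 6). All of them were higher in the members than in the tendon, fibroblast and red blood cell gates of the same library.

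**Figure D2:**
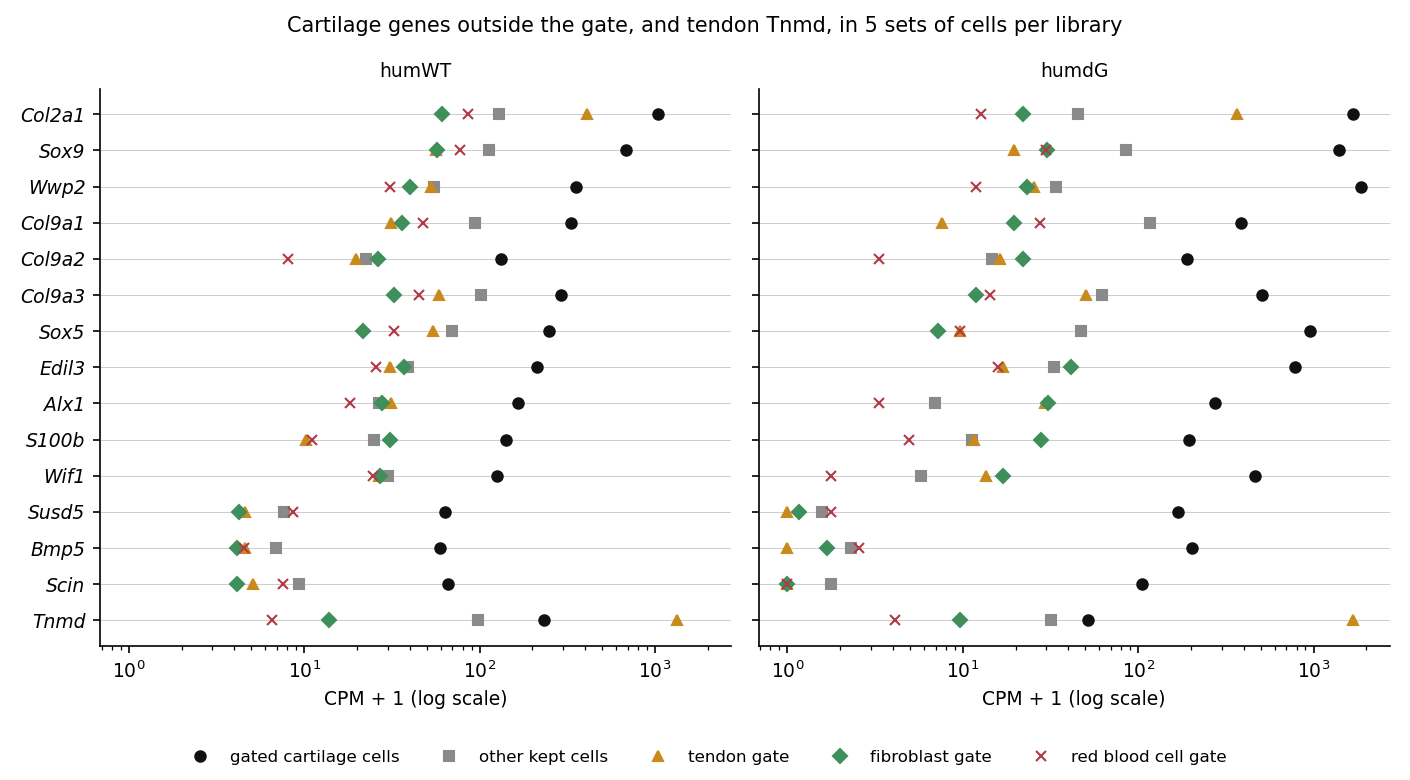
Levels of 14 cartilage-linked genes outside the rule, and of tendon Tnmd, in 5 sets of cells of each library. The x axis is CPM plus 1 on a log scale and each point is a sum over cells. Black points, the members, stand to the right of every other set for the 14 genes, while the tendon gate leads for Tnmd.

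Nearly all members also carried RNA of other cells. At least 3 markers of 1 of 9 other cell types were detected in 658 of the 687 humWT and all 17 humdG members, mostly red blood cell genes, as in 99.2% of the other kept cells of each library. With red blood cell genes set aside, this held for 232 humWT (33.8%) and 14 humdG members (82.4%), compared with 61.3% and 50.9% of the other cells. These shares were not matched for depth. Median UMIs were 2960 in humWT members and 3855 in other humWT cells, and 27360 and 2572.5 in humdG. Of the 11 humdG members without the 6 largest barcodes, 6 had 3 retinal progenitor markers, 2 retinal neuron and 1 muscle markers. None had 3 markers of pigment epithelium, endothelium, surface epithelium or Schwann cells. A tendon rule (at least 3 of Tnmd, Scx, Mkx, Thbs4 and Kera, and 0.1% of UMIs) was met by 15 humWT members and 1 humdG member, which is 4.01% of 374 humWT tendon-gated cells. In those 15 cells the tendon gene Tnmd was at 3522 CPM, the fibroblast collagen Col1a1 at 33115 CPM and Sox9 at only 123 CPM. Tnmd was found in 34 humWT members, and 10 of them held 93.2% of its UMIs there. The humdG member that met the tendon rule had 24188 UMIs, of which 65 were Tnmd, and none from Bmper, Cnmd or Hapln1. Globin RNA was in nearly every member: Hbb-bs was at 3731 CPM in humWT members and 7056 CPM in other humWT cells, and at 587 and 6050 CPM in humdG. The 5 red blood cell genes summed to 7141 CPM in humWT and 1115 CPM in humdG members. Of 347 humWT red blood cells only 1 met the cartilage rule (0.288%), of 166 macrophages none did (up to 1.81%), and of 530 endothelial cells 4 did. In the humdG library the counts were 0 of 260, 0 of 99 and 6 of 271. Osteoblast genes were near absent, with the 8 genes of that list summing to 8.09 CPM in humWT and 23.4 CPM in humdG members, and with Sp7, Bglap2, Ibsp and Dmp1 at 0 UMIs in both. The 8 fibroblast genes summed to 11491 CPM in humWT and 5284 CPM in humdG members, led by Col1a1, and the 5 tendon genes to 466 and 138 CPM, led by Tnmd. The 8 muscle genes summed to 831 and 173 CPM, led by Ttn, and the 7 pigment epithelium genes to 580 and 68.7 CPM, with Rpe65 at 0 in humWT. Without the 6 largest barcodes, the humdG fibroblast genes summed to 10291 CPM, close to humWT, and the tendon genes to 799 CPM, above humWT. Of the Col1a1 and Tnmd UMIs in these 11 humdG members, the 1 that met the tendon rule held 522 of 718 and all 65. The 7 others of 10000 to 100000 UMIs had Col1a1 at 1259 CPM and no Tnmd UMI. Without the 6 largest barcodes, the humdG red blood cell genes summed to 1506 CPM and the muscle genes to 86.4 CPM. Of the osteoblast and macrophage genes, none had a UMI in the remaining 11 humdG members. Macrophage genes were low over all members, at 33.2 and 4.68 CPM over 6 genes, with C1qa and Csf1r at 0 in humdG. The part of these transcripts in the results below was not tested.

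Most humWT members lay in a narrow range of depth, 576 of the 687 having 2000 to 5000 UMIs. Within that range, cells were sorted by how many of the 6 rule genes they had. Col2a1 stood at 168 CPM in the 4342 cells with none, at 224, 399 and 758 CPM with 1, 2 and 3, and at 1089 CPM with 4. With 5 genes it was 1363 CPM (1223 to 1515), and in the 10 cells with all 6 it was 1021 CPM (703 to 1434). Sox9 went from 158 CPM with none, through 544 CPM with 3, to 1052 CPM with all 6. In these humWT cells both genes thus climbed from each count to the next up to 5, on either side of the 3 genes at which the rule begins. Hbb-bs went the other way for the most part, from 12992 CPM with none to 6584 CPM with 3 and 2977 CPM with 4, then 4656 CPM with 5 and 2413 CPM with 6. Col1a1 changed less, from 2197 to 4640 CPM. In humdG cells of that depth, Col2a1 went from 47.1 CPM with none through 74.1 and 293 to 320 CPM in 5 cells with 3. Sox9 went from 77.9 to 534 CPM, Tnmd from 14.7 to 747 CPM and Col1a1 from 1099 through 3506 and 14003 to 8436 CPM. The 3 humdG members of that depth had Col2a1 at 342 CPM, Sox9 at 770 CPM and no UMI of Sox5, Wwp2, Alx1 or Tnmd. The ribosomal-RNA-linked count gene Gm42418 took 18.9% of all humWT member UMIs, compared with 9.61% in other humWT cells. In humdG members it took 2.34%, or 5.57% without the barcodes over 100000 UMIs, compared with 8.11% in other humdG cells.

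**Figure D3:**
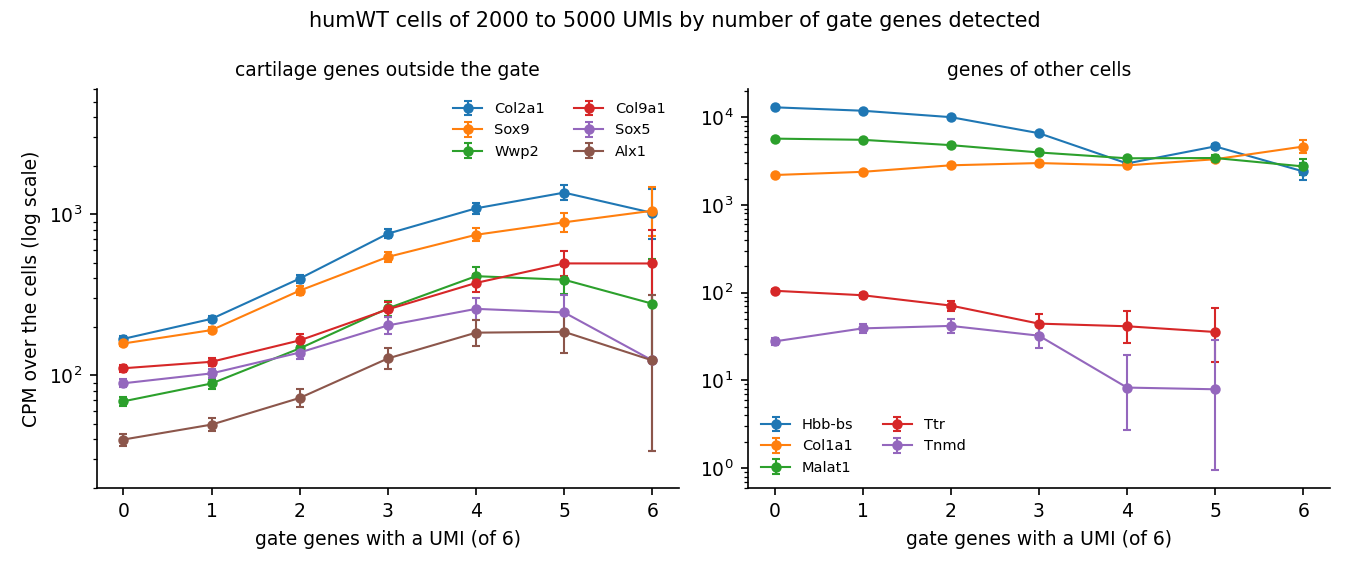
Gene levels in humWT cells of 2000 to 5000 UMIs, by the number of rule genes detected. The y axis is CPM over the cells on a log scale and bars are 95% Poisson intervals, and groups at 0 CPM are not drawn. In the left panel, Col2a1 climbs from 168 CPM with none to 1363 CPM with 5 and stands at 1021 CPM with 6, where several other cartilage genes are also lower. In the right panel, Hbb-bs goes from 12992 to 2413 CPM.

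The share of cells that met the rule was 4.04% in humWT (3.75% to 4.34%) and 0.0889% in humdG (0.0518% to 0.142%), a ratio of 45.4 (28.2 to 78.4). Cells under 10000 UMIs made up 669 of the 687 humWT members and 3 of the 17 humdG members. Among cells under 2000 UMIs, 49 of 1731 humWT cells met the rule (2.83%, 2.10% to 3.73%) and none of 7371 humdG cells did, which allows a share of up to 0.0407%. Among cells of 2000 to 5000 UMIs the shares were 6.59% (576 of 8737) and 0.0549% (3 of 5460, 0.0113% to 0.160%). Among cells of 5000 to 10000 UMIs they were 1.69% (44 of 2603) and 0 of 2835, which allows up to 0.106%. Among cells of at least 10000 UMIs they were 0.456% (18 of 3946, 0.271% to 0.720%) and 0.404% (14 of 3463, 0.221% to 0.677%), and these intervals overlapped. Without tendon-gated cells and barcodes over 100000 UMIs, 13 of 3663 humWT cells (0.355%, 0.189% to 0.606%) and 7 of 3372 humdG cells (0.208%, 0.0835% to 0.427%) remained at that depth. The excess in humWT was thus large below 10000 UMIs, while from that depth on the intervals overlapped. With the barcodes over 100000 UMIs kept and tendon-gated cells left out, the humdG share was the higher one, at 13 of 3398 cells (0.383%, 0.204% to 0.653%) against 13 of 3679 humWT cells (0.353%, 0.188% to 0.603%). That order rests on the 6 largest humdG members, and whether they are separate cells or 1 source was not tested. The part of stray cartilage RNA in the shares of shallow cells was not tested. How much tissue around the eyeball was left on each pool cannot be told apart from genotype with 1 library each.

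**Figure D4:**
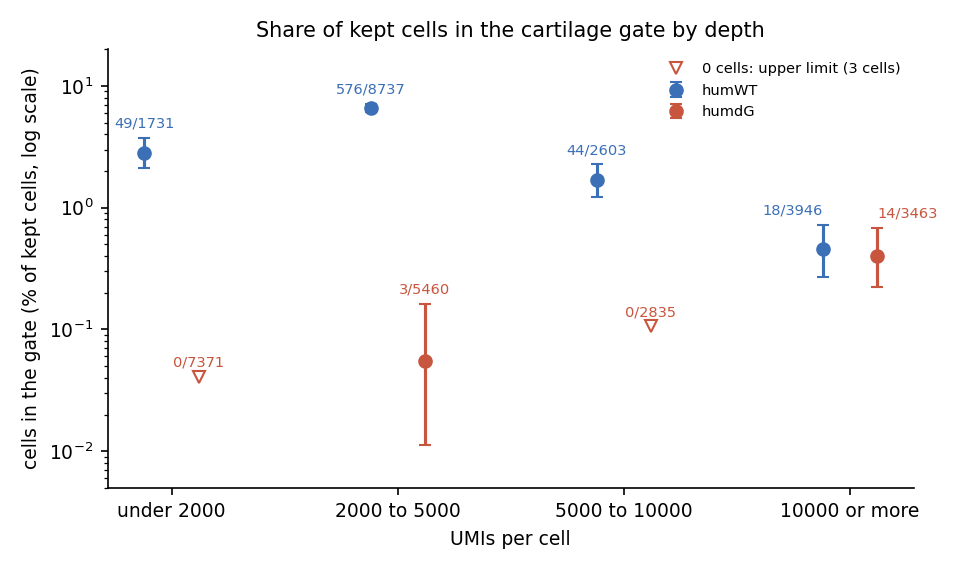
Share of kept cells that met the rule, by UMIs per cell. The y axis is percent on a log scale, bars are exact 95% binomial intervals, triangles mark the upper limit where no cell met the rule, and the fractions give members over kept cells. The libraries are far apart below 10000 UMIs and overlap at 10000 or more, where 18 of 3946 and 14 of 3463 cells met the rule.

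The sexes were mixed in both pools. Among humWT members, 153 had Xist and no Y-linked RNA, 142 had Y-linked RNA and no Xist, 58 had both and 334 had neither. Xist-only cells were 51.9% of the humWT members with RNA of 1 sex, compared with 27.1% of the other humWT cells. That share was also high in the humWT tendon gate, at 45.1%, and in the humWT fibroblast gate, at 42.4%. In humdG, 1 of only 5 members with RNA of 1 sex was Xist-only, too few to set an order against the 60.3% of other cells. Among all 17 humdG members, 1 had Xist alone, 4 had Y-linked RNA alone, 9 had both and 3 had neither. Myrf itself, the engineered gene, was scarcely detected in members, at 22 UMIs (8.90 CPM) in humWT and 7 UMIs (5.46 CPM) in humdG.

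The members were then compared between genotypes, as the ratio of humdG to humWT CPM. Over all 11437 genes, 23.5% had a ratio of at least 2 and 4.26% a ratio of at most 0.5, and the median log2 ratio was 0.54. Without the 6 largest barcodes that median was 0.10, so values for all members are relative to a shifted centre. Another comparison therefore used only members of 10000 to 100000 UMIs outside the tendon gate, which were 13 humWT cells (median 12362 UMIs) and 7 humdG cells (median 20288 UMIs). In these depth-matched members, 2805 genes had at least 20 UMIs, the median log2 ratio was -0.10, and the ratio's interval lay above 1 for 9.41% of genes and below 1 for 14.4%. The depth-matched cells summed to 184345 UMIs in humWT and 149337 UMIs in humdG, so their precision is limited, and where the cell richest in a gene decided the side of 1 of a ratio given below, the interval without that cell is given too.

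The collagens of the cartilage fibril come first. Of 7 genes, 6 (Col2a1, Col9a1, Col9a2, Col9a3, Col11a1 and Col11a2) stood at least 2-fold above other cells in both libraries, and Col27a1 did not. Without the 6 largest humdG barcodes, Col9a1 was 1.88-fold above other humdG cells. Type IX collagen coats the fibril: Col9a1 was at 332 CPM in humWT and 385 CPM in humdG members (227 without the 6 largest), Col9a2 at 131 and 189 CPM (129.6), and Col9a3 at 289 and 506 CPM (346). Col11a1, of the fibril core, was at 786 and 702 CPM, but it was higher still in humWT tendon-gated cells, at 1549 CPM. The median log2 ratio of the 7 genes was 0.53, close to that of all genes. In the depth-matched members it was 0.09 over 6 genes, and 1 of the 6 had an interval above 1, compared with 9.41% of all genes. Col2a1 was at 1096 CPM in depth-matched humWT and 1252 CPM in humdG cells, a ratio of 1.14 (0.93 to 1.40). Per cell, it ran from 0 through a median of 555 to 5078 CPM in the 13 humWT cells and from 542 through 1096 to 2358 CPM in the 7 humdG cells, so the groups overlapped. Without the richest humWT cell the ratio was 1.47 (1.18 to 1.84). Col9a1 (ratio 0.90, 0.58 to 1.37) and Col11a1 (0.98, 0.72 to 1.35) had intervals around 1, while Col9a3 was higher in humdG (1.80, 1.2 to 2.70).

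Among 16 chondrocyte transcription factors, 10 had enough UMIs, and Sox9, Sox5, Barx1 and Shox2 stood at least 2-fold above other cells in both libraries. Across all members, 7 of the 10 had a ratio of at least 2, compared with 23.5% of all genes, and the median log2 ratio was 1.2, or 0.54 without the 6 largest barcodes. In the depth-matched members the median was 0.05 over 8 genes. Of these, 1 had an interval above 1 and 2 below, compared with 9.41% and 14.4% of all genes. Sox9 was the gene above 1, at 510 CPM in humWT and 1339 CPM in humdG cells, a ratio of 2.63 (2.05 to 3.39). Per cell, Sox9 ran from 0 through 404 to 1381 CPM in humWT and from 807 through 1540 to 1892 CPM in humdG. The groups overlapped, and 5 of the 7 humdG cells lay above every humWT cell. Its partner Sox5 was at 483 and 462 CPM (ratio 0.96, 0.69 to 1.33), and Sox6 at 119 and 181 CPM (1.51, 0.83 to 2.79, or 2.24, 1.14 to 4.63, without the richest humWT cell). Zfp521, a zinc finger factor of early chondrocytes, had a depth-matched ratio of 0.52 (0.32 to 0.81), or 0.78 (0.47 to 1.29) without the richest humWT cell, though 2.32 over all members and 1.15 without the 6 largest barcodes. Arid5b had 0.36 (0.18 to 0.66) at matched depth, 2.28 over all members and 0.78 without those 6. Runx2, a factor of maturing chondrocytes and bone, was at 25.9 and 81.9 CPM over all members (ratio 3.16, 2.30 to 4.39), and its depth-matched ratio was 1.80 (0.78 to 4.28), or 2.87 (1.07 to 8.94) without the richest humWT cell. The 6 largest humdG barcodes lay close together for Sox9, from 1238 to 1556 CPM.

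**Figure D5:**
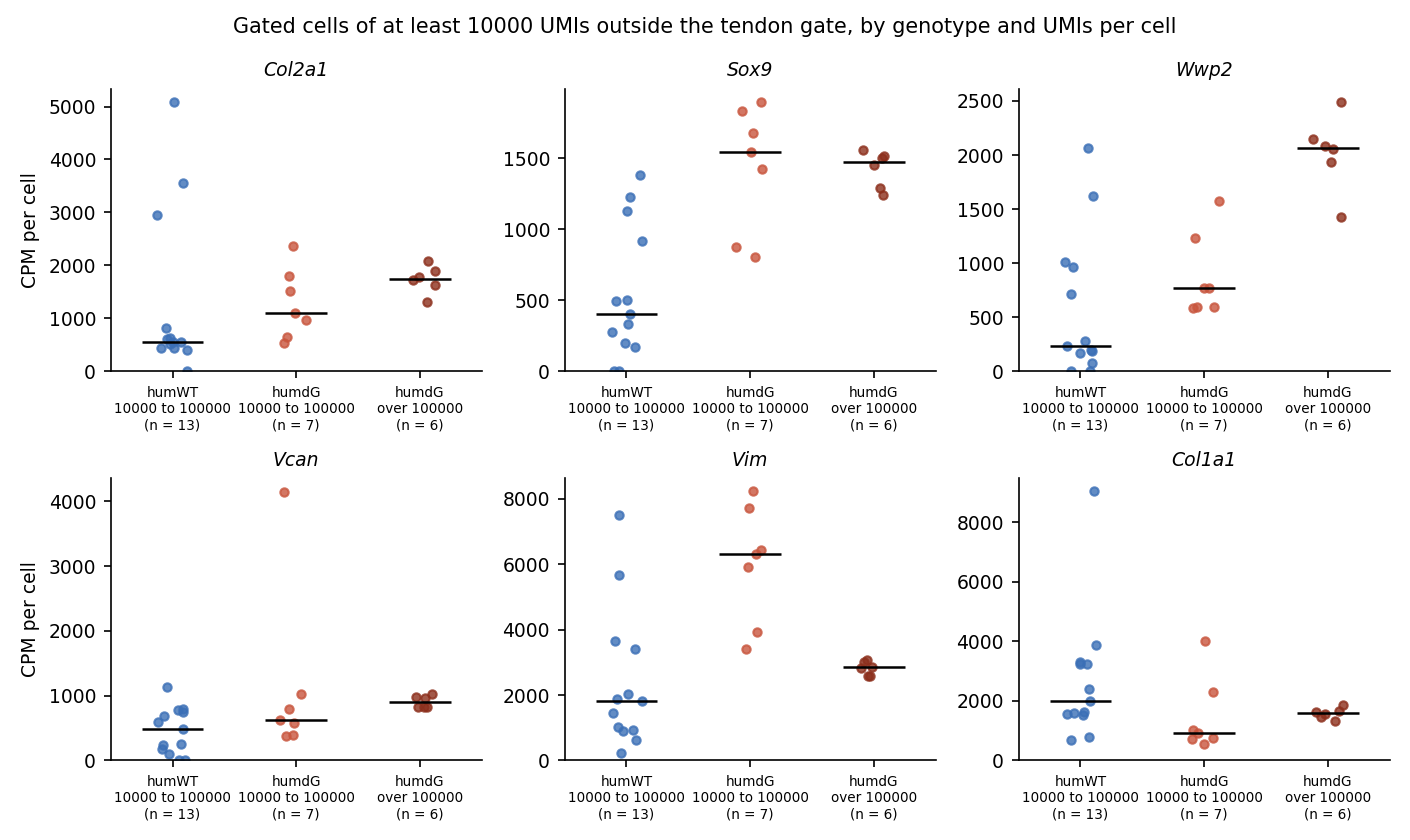
Per-cell levels of 6 genes in members of at least 10000 UMIs outside the tendon gate. The y axis is CPM per cell, each point is a cell, lines are medians, and the columns are 13 humWT cells and 7 humdG cells of 10000 to 100000 UMIs and the 6 humdG cells over 100000 UMIs. Col2a1 overlaps between the 13 and the 7 cells, Sox9 and Vim lie higher in humdG, with medians of 1540 against 404 CPM and 6315 against 1814 CPM, and Col1a1 overlaps.

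Of 27 noncollagenous matrix genes, 19 had enough UMIs. Over all members 9 of them had a ratio of at most 0.5, compared with 4.26% of all genes, and Vcan had a ratio of at least 2. The median log2 ratio was -0.88, against 0.54 for all genes. In the depth-matched cells 3 genes could be read and their median was 0.56. Of the 3 intervals, 2 lay above 1, compared with 9.41% of all genes. The direction of the list thus turned with the cells and genes used. Fmod, Cytl1 and Pcolce2 stood at least 2-fold above other cells in both libraries, though no Cytl1 UMI lay outside the 6 largest humdG barcodes. Of these, Fmod (fibromodulin, a fibril-binding proteoglycan) was also at 399 CPM in the humWT tendon gate, against 108 CPM in the humWT members. Outside the 6 largest barcodes, the humdG members held 44 Fmod UMIs, none of them in the 7 depth-matched cells. Those 44 thus lay in the member that met the tendon rule and in the 3 members under 10000 UMIs. The humdG fold of Fmod without the tendon-gated member is not given here. Matn1, matrilin-1, had 32 UMIs in humWT and 0 in humdG, Ucma had 27 and 0, Snorc 92 and 10, and Cytl1 94 and 27. These counts were drawn from 2470958 UMIs in all humWT members and 1281480 in all humdG members. In the depth-matched cells these genes had at most 4 UMIs in either library, too few to compare. Comp and Prg4, of cartilage surface and joints, had 0 UMIs in both. Vcan, versican, a large proteoglycan of immature cartilage and mesenchyme, was at 218 CPM in humWT and 886 CPM in humdG members, and in the depth-matched cells at 477 and 904 CPM (ratio 1.89, 1.44 to 2.51). A single humdG cell stood at 4148 CPM of Vcan, and the ratio without it was 1.21 (0.88 to 1.65), with the group median at 621 CPM against 485 CPM in humWT. Bgn, biglycan, had a depth-matched ratio of 1.47 (1.07 to 2.05), or 1.30 (0.92 to 1.83) without the richest humdG cell. Mgp, an inhibitor of mineral deposition, had 0.81 (0.62 to 1.05), or 0.65 (0.47 to 0.88) without the richest humdG cell. Fmod changed side with the cells used, at 0.41 over all members and 2.19 without the 6 largest barcodes. In the depth-matched cells it had 12 UMIs in humWT and 0 in humdG. The 2.19 rests on the 44 humdG UMIs above, from the tendon-gated member and the 3 members under 10000 UMIs.

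Genes that build and sulfate the sugar chains were all measurable, 16 of 16. Papss2 makes the sulfate donor and was at 96.3 CPM in humWT and 157 CPM in humdG members, against 25.2 and 7.41 CPM in other cells. Slc26a2, the sulfate transporter, was at 49.4 and 57.0 CPM (other cells, 12.3 and 6.30). Ugdh, which makes the sugar precursor, was at 166 and 199 CPM, and Xylt1, which starts the chains, at 79.7 and 297 CPM. These 4 stood at least 2-fold above other cells in both libraries. Without the 6 largest barcodes, the humdG levels were 75.6 CPM for Papss2, 32.4 CPM for Slc26a2 and 91.8 CPM for Xylt1. Over all members 5 of the 16 had a ratio of at least 2, near the 23.5% of all genes, and none a ratio of at most 0.5, with Chst11 highest at 4.59 (3.76 to 5.62), or 0.94 (0.44 to 1.78) without the 6 largest barcodes. In the depth-matched cells 6 genes could be read and their median log2 ratio was -0.07. Of their intervals, 1 lay below 1, that of Chsy3 (28 UMIs against 2), compared with 14.4% of all genes. A single humWT cell held 19 of the 28, and without it the interval was 0.03 to 1.25.

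The machinery that folds and ships collagen was read next. Of 21 measured genes, 2 were at least 2-fold above other cells in humWT and 13 in humdG. The median fold of all genes was 0.87 in humWT and 1.11 in humdG. The share of all genes past 2-fold is given here only for both libraries together, so these 2 counts are a description. Creb3l2, a factor that raises secretory capacity in chondrocytes, and Loxl3, a collagen cross-linking enzyme, were at least 2-fold above other cells in both libraries. Creb3l2 was at 231 CPM in humWT and 389 CPM in humdG members (184 without the 6 largest barcodes), and Loxl3 was 1.92-fold above other humdG cells without them. Serpinh1, the collagen chaperone, was at 452 and 500 CPM, but at 926 CPM in the humWT tendon gate. The median log2 ratio was 0.60 over all members and -0.05 in the depth-matched cells. There, 2 of 16 intervals lay above 1 and 1 below, compared with 9.41% and 14.4% of all genes. Ppib, a prolyl isomerase, was at 662 CPM in depth-matched humWT cells and 1373 CPM in humdG cells (ratio 2.07, 1.65 to 2.62). Plod2, a lysyl hydroxylase, had 8 and 21 UMIs (3.24, 1.38 to 8.46), and Loxl1, another cross-linking enzyme, 25 and 8 UMIs (0.40, 0.15 to 0.90). Both intervals took in 1 without a single cell, the richest humdG cell for Plod2 (0.86 to 6.45) and the richest humWT cell for Loxl1 (0.21 to 1.38).

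Growth signals of cartilage follow. In growth cartilage, Indian hedgehog (Ihh) from maturing cells and PTHrP (Pthlh) act on the PTH receptor (Pth1r) and Patched (Ptch1) to pace maturation. Ihh had 0 UMIs in humWT and 1 in humdG members, and none of the 8 measured genes of this pathway stood 2-fold above other cells in both libraries. Pth1r was at 33.2 and 35.1 CPM, and Ptch1 at 30.8 and 59.3 CPM (16.2 without the 6 largest barcodes), which was no higher than the 58.1 and 65.01 CPM of other cells. In the depth-matched cells Gli2 (21 and 6 UMIs, ratio 0.35, 0.12 to 0.90) and Gli3 (22 and 5 UMIs, 0.28, 0.08 to 0.76), which relay hedgehog signals, had intervals below 1, but that of Gli2 was 0.13 to 1.08 without the richest humWT cell. Over all members both genes were instead higher in humdG, Gli2 at 52.2 and 85.8 CPM and Gli3 at 61.1 and 119 CPM, but without the 6 largest barcodes humdG stood at 48.6 and 32.4 CPM. Of 25 measured FGF and BMP genes, Bmp5 and Fgfr3 stood at least 2-fold above other cells in both libraries. Fgfr3, the receptor that restrains chondrocyte growth, was at 54.6 CPM in humWT and 105 CPM in humdG (32.4 without the 6 largest barcodes), against 7.69 and 3.07 CPM in other cells. Over all members 5 of the 25 genes had a ratio of at least 2, near the share of all genes (23.5%). Another 3 (Bmp4, Fgf18 and Grem1) had at most 0.5, compared with 4.26% of all genes. Without the 6 largest barcodes, the log2 ratios of Fgf18 (0.32) and Grem1 (0.63) were positive, from 3 and 2 humdG UMIs. Bmp4 stayed lower in humdG without them, at 15.8 CPM in humWT and 10.8 CPM in humdG, from 2 humdG UMIs. Id3, a target of BMP signals, had a depth-matched ratio of 1.84 (1.29 to 2.64), Gdf10, a BMP-like ligand, 3.50 (1.32 to 10.8) from 6 and 17 UMIs, and the receptor Bmpr2 0.46 (0.20 to 0.97). None of the 3 intervals held without a single cell. Without the richest humdG cell, Id3 stood at 1.43 (0.96 to 2.11) and Gdf10, of whose 17 UMIs that cell held 13, at 1.01 (0.21 to 4.25). Without the richest humWT cell, Bmpr2 stood at 0.55 (0.23 to 1.23). Over all members Bmpr2 was at 92.7 CPM in humWT and 146 CPM in humdG (81.0 without the 6 largest barcodes).

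Markers of the last steps of cartilage life were scarce. Col10a1, the collagen of hypertrophic chondrocytes, had 8 UMIs in humWT and 14 in humdG members. Mmp13, Ibsp and Phospho1 had 0 UMIs in both, and only 4 of the 11 genes of that list could be measured. The perichondrium, the sheath around cartilage, shares Col1a1, Col1a2 and Col3a1 with fibroblasts. In that list of 12 genes, 10 were measured, their median log2 ratio was -0.55, and Wif1, a secreted Wnt inhibitor, was the gene at least 2-fold above other cells in both libraries. Wif1 was at 125 CPM in humWT and 460 CPM in humdG members, and its depth-matched ratio was 2.14 (1.40 to 3.29). Col1a1 was at 2588 CPM in depth-matched humWT cells and 1259 CPM in humdG cells (ratio 0.49, 0.41 to 0.58), with 1 humWT cell at 9044 CPM and 1 humdG cell at 4002 CPM. Other genes of other cells were also lower in the depth-matched humdG cells. The ratio was 0.56 (0.42 to 0.74) for Hbb-bs and 0.35 (0.27 to 0.45) for the fibroblast gene Dcn, or 0.57 (0.43 to 0.76) without 1 humWT cell that held 113 of 267 Dcn UMIs. A single humWT cell, at 24775 CPM, held 248 of 260 UMIs of the pigment epithelium gene Dct. Whether these other transcripts bear on the ratios of cartilage genes was not tested. Vim, vimentin, the filament protein of mesenchymal cells, was at 2164 and 6328 CPM (ratio 2.92, 2.60 to 3.29), and the groups overlapped, with 1 humWT cell at 7523 CPM.

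The direction of the cell cycle genes turned with the cells used. The 18 DNA replication and mitosis genes had a median log2 ratio of 0.67 over all members, -1.02 without the 6 largest barcodes and -0.56 over 6 genes in the depth-matched cells. Top2a, which untangles DNA in dividing cells, was at 197 and 304 CPM over all members (54.0 in humdG without the 6 largest barcodes). At matched depth it was at 239 CPM in humWT and 46.9 CPM in humdG cells (ratio 0.20, 0.07 to 0.44). The ratio was 0.12 (0.03 to 0.33) without the richest humdG cell. Without the richest humWT cell, which held 16 of 44 UMIs, it was 0.27 (0.10 to 0.63). Top2a was found in 7 of 13 and 4 of 7 cells. The 13 hypoxia and glycolysis genes had a median of 0.11 over all members, and in the depth-matched cells none of 9 intervals left out 1, though that of Ldha, a glycolysis enzyme, lay just above 1 without the richest humWT cell (ratio 1.41, 1.002 to 1.99). Gapdh was at 704 and 647 CPM over all members.

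Genes of body position were read last. Of 15 Hox genes, which mark levels of the neck and trunk, Hoxb4 and Hoxd4 had 1 UMI each in humWT members and the rest none in either library. Among 22 periocular mesenchyme factors, 11 were measured and Alx1 stood at least 2-fold above other cells in both libraries. Prrx1, a limb and face mesenchyme factor, was at 154 and 470 CPM over all members, and its depth-matched ratio was 2.00 (1.31 to 3.10).

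Among genes with at least 100 UMIs over all members, the most extreme ratios lay outside the cartilage lists. Lef1, a Wnt-responsive transcription factor, had 21 UMIs in humWT and 127 in humdG members (ratio 11.7, 7.31 to 19.5). In the depth-matched cells it had 0 UMIs in humWT and 17 in humdG, from 4 of 7 cells, so that the lower bound of the ratio was 5.09. Inhba (8.60), Trhde (8.33) and Sox2ot (7.89) were also among the highest. Without the 6 largest barcodes, Inhba stood at 6.16, Trhde at 3.34 and Sox2ot at 3.64. At matched depth Trhde had a ratio of 1.23 (0.64 to 2.38), or 2.34 (1.05 to 5.56) without the richest humWT cell. The lowest ratios at that limit were those of Il31ra, Cmss1, Gm19951, Gphn and Dct, each at 0.06. Without the 6 largest barcodes, Cmss1 stood at 0.28 and Gphn at 0.24. Gm19951 was then at 1718 CPM in humWT and 292 CPM in humdG members, Dct at 221 and 27.0 CPM, and Il31ra at 70.0 and 0 CPM. Of the humWT Dct UMIs, 248 lay in the single cell named above. Cmss1 and Gphn, whose counts were high in humWT members as those of Gm42418 were, had depth-matched ratios of 0.71 (0.65 to 0.77) and 0.56 (0.49 to 0.63).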

How the data were processed

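Single-cell RNA-seq was read from 2 droplet libraries, 1 per genotype. The authors deposited raw UMI counts per gene and barcode, made with Cell Ranger 7.1.0 against mm10 per the submitters' processing notes, which also name Seurat 4.1.1. Whether intronic reads were counted is not given in the sources used here. The files list barcodes already called as cells, with no cell type annotation. No doublet caller was run. Members with markers of other cells were instead left out in alternatives.

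Cells with over 500 genes and under 15% mitochondrial UMIs were kept, and the rule on 6 genes was applied to each. The members and gene lists were chosen with earlier results of these data known. Counts were summed over members and divided by their total UMIs, with exact Poisson intervals for CPM, exact conditional binomial intervals for ratios and Clopper-Pearson intervals for shares, all at 95%. A count of 0 allows up to 3. Lists were described by the median log2 ratio of genes with at least 20 UMIs, with 0.5 counts added. Cells for comparison were gated on tendon genes (3 of 5, 0.1% of UMIs), fibroblast genes (5 of 8, 2%) and red blood cell genes (3 of 5, 30%), members excluded.

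The genes named were the 6 rule genes, the most abundant 4 members of each list and those past a 2-fold ratio with an interval that leaves out 1, the 5 highest and 5 lowest ratios and the 10 highest folds over other cells (at least 100 UMIs each), Myrf and sex genes. Vim, Dcn, Fgfr3, Cytl1 and other list members were added after their values were seen, as were the depth-matched comparison and the settings without large or tendon-gated barcodes or without the cell richest in a gene. Some genes that this rule names are not reported here. Genes sharing a symbol (38 in the files) were not named. Alternatives changed the rule, the cells kept, the weight of cells, the scaling, free RNA, sex, filter and pseudocount. The scripts recovered known changes when tested on simulated data. Python 3.11.15, numpy 2.4.6, scipy 1.17.1, pandas 2.3.3 and matplotlib 3.10.9 were used.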

Additional observations from a re-analysis of the deposited data

How the results depend on the processing

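No paired analysis was possible because each genotype has 1 library, and no replicate could be left out. Depth limits most values: the humWT members held a median of 2960 UMIs, and the depth-matched cells were 13 and 7. The humWT share of 4.04% became 0.0176% with a rule of 0.5% of UMIs, 1.93% with 4 of 6 genes, 3.60% with a Col2a1 UMI added, 0.170% without members in which 3 markers of another cell type were detected, 6.59% in cells of 2000 to 5000 UMIs and 0.456% in cells of at least 10000 UMIs. The humdG share of 0.0889% became 0 with a rule of 0.5% and without such mixed members, 0.145% in cells of at least 2000 UMIs and 0.404% in cells of at least 10000. The 2 shares without mixed members still had all kept cells as their base, and 99.2% of the other kept cells of each library were mixed too. These 2 shares therefore cannot tell how far the rule rests on mixed cells. Among cells without such markers, 29 members stood beside 136 other cells in humWT, and 0 beside 150 in humdG. The settings on barcodes over 100000 UMIs, matched depth and tendon-gated members were chosen after seeing the data. Medians of log2 ratios moved as follows, and the cause was not tested. Without barcodes over 100000 UMIs they were 0.54 for transcription factors, 0.24 for collagen folding, 0.10 for FGF and BMP genes, 0.072 for hypertrophic genes, -1.02 for mitosis genes and 0.10 for all genes. At matched depth they were 0.049 for transcription factors, -0.072 for sulfation, -0.050 for folding, -1.42 for hedgehog genes, 0.17 for FGF and BMP genes, -0.015 for hypertrophic genes, -0.56 for mitosis, -0.22 for glycolysis and -0.10 for all genes. In members with Y-linked RNA only they were 0.39 for transcription factors, 0.15 for FGF and BMP genes, -1.84 for mitosis and 0.10 for all genes. Scaled to the median gene they were 0.67 for transcription factors, 0.060 for folding, -0.00680 for FGF and BMP genes, 0.13 for mitosis and -0.43 for glycolysis. With the CPM of red blood cells subtracted they were 0.91 for folding, 0.88 for FGF and BMP genes, -0.73 for glycolysis and 0.72 for all genes. With cells weighted equally, mitosis stood at 0.16 and all genes at 0.31. All genes stood at 0.49 with 4 of 6 genes, 0.58 without the deepest 5% of members, 0.55 without tendon-gated members and 0.58 with a pseudocount of 5. Of the genes with a ratio past 2-fold over all members and an interval that leaves out 1, those that changed sign at matched depth were Sox5 (-0.061), Zfp521 (-0.93), Arid5b (-1.44), Xylt1 (-0.048), Chst11 (-0.73), Fgfr2 (-0.42), Vegfa (-0.85) and Tfap2b (-0.43). Those of this kind that did without barcodes over 100000 UMIs were Arid5b (-0.31), Fmod (1.14), Chst11 (-0.025), P3h2 (-0.35), Loxl3 (-0.64), Fgf18 (0.32), Grem1 (0.63), Col1a2 (0.125), Erg (-0.74), Rrm2 (-1.28), Alx4 (-0.25) and Tfap2a (-0.090). With Y-linked RNA only they were Zfp521 (-0.37), Fmod (1.32), P3h2 (-0.67), Loxl3 (-1.06), Fgfr2 (-0.47), Col1a2 (0.34) and Erg (-0.85), and with equal weights Fmod (0.62). In 160 further combinations of a list and a setting, the median stayed within the interval that the spread of the list's genes gave it. Without the cell richest in a gene, also chosen after seeing the data, depth-matched ratios stayed within their interval in 202 cases and left it in 21. Ratios were not run with the 0.5% rule (3 humWT and 0 humdG members), without mixed members (29 and 0) or in members with Xist only (153 and 1).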
